A study of Homo sapiens with 8 samples.

Results

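The genes described here rose in Nthy-ori 3-1 cells given a miR-375 mimic and fell in TT cells given a miR-375 inhibitor. Nthy-ori 3-1 derives from normal follicular epithelium of the thyroid and was immortalized, and TT is a line from a medullary thyroid carcinoma, a tumour of the calcitonin-secreting C cells. Cells were transfected for 48 h in 4 groups of 2 arrays: ORI_CTL and ORI_premiR-375 in Nthy-ori 3-1 cells, at 5 nM of precursor in the labels, and TT_CTL and TT_AntagomiR-375 in TT cells, at 20 nM of antagomiR. The labels call both controls CTL. The transfection methods of the study give a control precursor and a control antagomiR as the reagents, while its array methods name no control antagomiR. Each cell type is represented by 1 line, and the 2 arrays of a group are biological replicates according to the methods of the study, while the labels do not say whether they came from separate cultures. The methods give higher concentrations of both reagents than the labels do.

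Members were selected on the deposited log2 signals of the 1-colour Agilent arrays. A probe had to read at least 6 on average in each line, to be at least 0.6 higher in ORI_premiR-375 than in ORI_CTL, to be at least 0.4 lower in TT_AntagomiR-375 than in TT_CTL, and to have these directions in both pairs of arrays with the same replicate number in each line. Gene names that start with HIST, SNORA, SNORD or SCARNA were left out, which removed 14 names that otherwise met the rule. This left 89 genes with 95 probes of 36337 gene names with 50599 probes on the array, 19549 gene names of which (25802 probes) reached the minimum in both lines and did not start with these letters. Shares of all probes at the minimum are over these 25802, without the names left out. Both treatment contrasts chose these genes, so their changes are given as a description and were not tested: for members, rise and fall name the difference between the means of 2 arrays. Among all 25802 probes at the minimum, 3.97% met the first threshold with both pairs (Nthy-ori 3-1, higher), 2.96% met the second (TT, lower) and 0.368% met the thresholds in these directions. The mirrored thresholds, down with the mimic and up with the inhibitor, were met by 0.527% of probes (124 genes), from 4.86% lower in Nthy-ori 3-1 and 3.82% higher in TT cells. Changes in the same direction in both lines were met by 0.178% for up in both and 0.0659% for down in both. Of the probes past the threshold upward in Nthy-ori 3-1 cells, 9.28% were lower and 4.49% higher in TT cells, and of those past it downward 1.36% were lower in TT cells.

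MicroRNAs guide Argonaute proteins to transcripts that pair with the seed, the bases near the 5′ end of the miRNA, and the paired transcripts are repressed. Direct targets of a miRNA are therefore known to fall when it is added and to rise when it is inhibited. The genes here went the other way in both lines. In the thyroid, miR-375 is a miRNA of C cells and of medullary carcinoma. Its mature sequence is shown because it is the molecule that the mimic supplies and that the antagomiR pairs with. RefSeq places it on the minus strand at chr2:219001648-219001669 (GRCh38.p14), and the seed (bases 2 to 8) is in capitals.
hsa-miR-375-3p: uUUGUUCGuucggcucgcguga

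Of 12 C cell markers, 11 had a probe (CALCB was not matched), and these 11 were higher in TT cells and well above background on all 4 TT arrays, against 1 (RET) on all 4 Nthy-ori 3-1 arrays. Of 10 follicular cell markers, 5 were well above background on all 4 Nthy-ori 3-1 arrays and 7 on all 4 TT arrays, and TSHR on none of the 8. PAX8 and FOXE1 were lower in TT cells, and TG, NKX2-1, DIO1 and DIO2 were higher there. Spots well above background made up 54.6 to 60.5% of spots on Nthy-ori 3-1 arrays and 60.5 to 63.6% on TT arrays. The RNA integrity number was 8 for both TT_CTL arrays and 9 for the rest, so in TT cells RNA quality and antagomiR-375 cannot be told apart. Within a line, arrays of equal number came from 1 slide, and no slide held both lines. Other label fields number the TT arrays differently from their titles, but alike in both TT groups, so the pairs are the same.

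Over the 89 genes, the rise in Nthy-ori 3-1 cells ran from 0.60 to 1.86 on the log2 scale with a median of 0.78, and 20 genes rose at least 2-fold. The fall in TT cells ran from -0.99 to -0.40 with a median of -0.48. The deposited signals hold no background correction, so these differences understate the change of dim genes. With background-subtracted signals 89 of 89 genes had the same directions and 84 still met both thresholds. Both ORI_premiR-375 arrays lay above both ORI_CTL arrays for 84 genes, and both TT_AntagomiR-375 arrays lay below both TT_CTL arrays for 88; among all probes this was so for 18.8% and 23.3%, and nothing is read from these counts because the rule used the same differences. As a description of the rise against the fall, Spearman's rho over the 89 genes was 0.19, and 8 of the 15 largest rises were among the 15 largest falls. The thresholds cut both ranges, so nothing is read from these values.

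**Figure D1:**
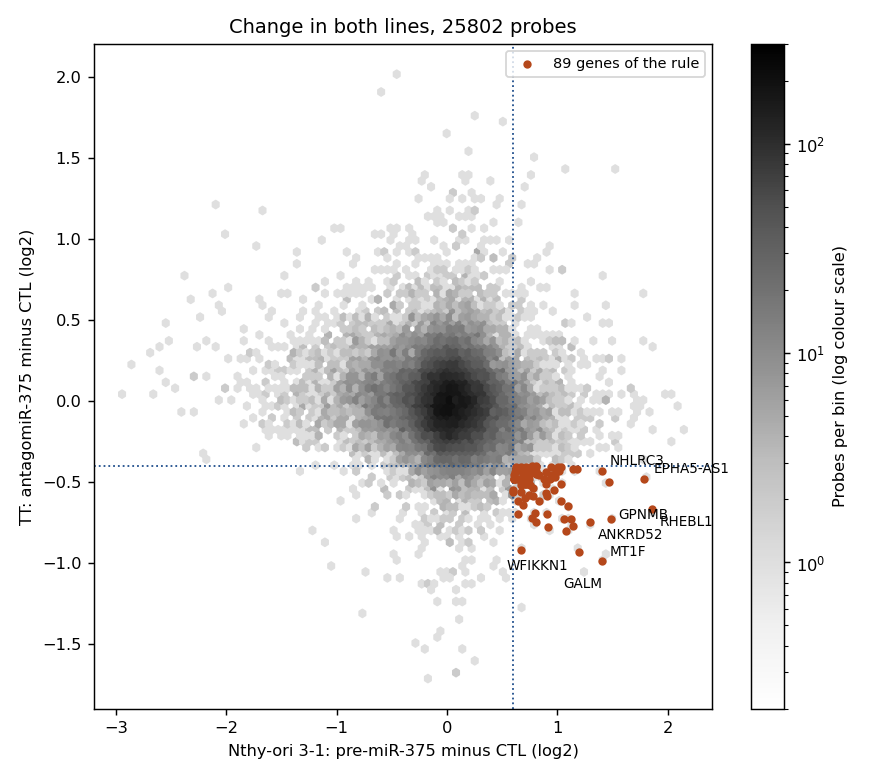
Change of Nthy-ori 3-1 cells given pre-miR-375 (x axis, log2) against change with antagomiR-375 in TT cells (y axis, log2) for the 25802 probes at the expression minimum, as grey bins, with the 89 genes as orange points and the thresholds of 0.6 and -0.4 as dotted lines. The named genes lie at the far edge of the lower right corner, where MT1F has the lowest value in TT cells (-0.99) and RHEBL1 the highest in Nthy-ori 3-1 cells (1.86).

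At the threshold in Nthy-ori 3-1 cells, the nearest members were XLOC_l2_002767 (0.6025), C1orf213 (current symbol ZNF436-AS1, 0.6046) and LIPA (0.6062). Just outside it lay C6orf126 (0.5988), C9orf40 (0.5984) and SNX7 (0.5969). In TT cells the nearest inside were C20orf30 (TMEM230, -0.4030), ISOC1 (-0.4043) and C6orf192 (SLC18B1, -0.4063), and the nearest outside were FBXO43 (-0.3995), LOC100507241 (-0.3977) and TMEM25 (-0.3913).

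Each change was divided by its threshold, and the 15 genes with the largest smaller ratio, called leading genes here, are given with all 8 values in their role groups. Probe positions are those of the array design on hg19, and where in the transcript a probe lies was not assigned here. MT1F, a metallothionein that binds zinc and copper, stood first. Its probe (chr16:56693077-56693136) read 10.09 and 8.97 on the ORI_CTL arrays and 11.43 and 10.44 with pre-miR-375, a difference of 1.35 in one pair and 1.47 in the other. In TT cells it read 11.65 and 11.46 in TT_CTL and 10.53 and 10.59 with antagomiR-375. The groups did not overlap in either line. Both control arrays of Nthy-ori 3-1 cells lay 1.12 apart, nearly as far as the treatment groups.

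Metallothioneins are a cluster of near-identical genes, and the part of relatives in the signal of the MT1F probe was not tested. All 10 metallothionein genes on the list reached the minimum, and 10 of 10 were lower with antagomiR-375 (median -0.48), as were 52.0% of all probes at the minimum, MT1G by the most (-1.13). With pre-miR-375, 1 of 10 was higher (55.6% of all probes), MT1F itself at 1.41, and the other 9 ran from -0.55 (MT1M) to -0.03 (MT2A, which was at 0.01 on background-subtracted signals).

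GALM, the mutarotase that interconverts the anomers of galactose, read 6.62 and 7.37 in ORI_CTL, 8.62 and 7.76 with pre-miR-375, 6.84 and 6.82 in TT_CTL and 5.71 and 6.10 with antagomiR-375. The pairs in Nthy-ori 3-1 cells were far apart (2.00 and 0.39), and the probe (chr2:38960839-38960898) was well above background on 7 of 8 arrays. GALM had 2 further probes, which were higher with pre-miR-375 by 0.27 and 0.50 and read 0.11 and 0.08 above control in TT cells, where both averaged under 6. The fall of GALM in TT cells therefore rests on 1 of 3 probes near background.

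ANKRD52, a regulatory subunit of protein phosphatase 6, read 13.82 and 13.35 in ORI_CTL and 14.91 and 14.86 with pre-miR-375 (chr12:56631591-56631650). In TT cells it read 11.93 and 11.86 in TT_CTL and 11.27 and 11.01 with antagomiR-375. All 4 groups were separate, with each treated group apart from its control by more than the replicates were from each other. Its catalytic partner PPP6C differed by -0.01 with pre-miR-375 and by 0.01 with antagomiR-375, and the subunits PPP6R1, PPP6R2, PPP6R3, ANKRD28 and ANKRD44 lay between -0.37 and 0.28 in Nthy-ori 3-1 cells and between -0.11 and 0.34 in TT cells.

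RHEBL1, a small GTPase related to the mTORC1 activator RHEB, had the largest rise. It read 11.11 and 10.89 in ORI_CTL and 12.96 and 12.76 with pre-miR-375 (chr12:49458469-49458528), a 3.63-fold difference. In TT cells it went from 10.42 and 10.18 in TT_CTL to 9.55 and 9.71 with antagomiR-375. Replicates of RHEBL1 lay at most 0.24 apart in every group. RHEB itself differed by 0.19 and -0.34 in these lines. From here on, a pair of changes gives that in Nthy-ori 3-1 cells first and that in TT cells second.

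Other signalling genes followed the same pattern. MTMR9, a catalytically inactive member of the myotubularin phosphatases, read 7.83 and 8.32 in ORI_CTL, 8.93 and 9.34 with pre-miR-375, 7.94 and 7.81 in TT_CTL and 7.23 and 7.06 with antagomiR-375. Its known partner MTMR6 differed by 0.08 and -0.06. IQSEC2, an exchange factor for ARF GTPases, read 10.34 and 9.49 in ORI_CTL, 11.07 and 10.57 with pre-miR-375, 9.93 and 9.78 in TT_CTL and 9.33 and 9.24 with antagomiR-375. The other 2 IQSEC2 probes were higher in both lines, by 0.36 and 0.38 in Nthy-ori 3-1 and by 0.16 and 0.32 in TT cells, so 1 of 3 IQSEC2 probes had the pattern. ARL2, a GTPase of tubulin folding, changed by 0.67 and -0.56, and ACVR2B, a receptor for activins and myostatin, by 0.95 and -0.47. MAP3K10, a mixed lineage kinase, changed by 0.61 and -0.48, and SIKE1, an inhibitor of the kinase IKK-epsilon, by 0.68 and -0.43. The 2 further SIKE1 probes changed by 0.22 and -0.03 and by 0.36 and 0.00, so the fall of SIKE1 rests on 1 of 3 probes. The 8 genes put in this role changed by 0.61 to 1.86 in Nthy-ori 3-1 cells and by -0.75 to -0.43 in TT cells. Roles were assigned after the members were known, and 37 of the 89 genes were given none.

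**Figure D2:**
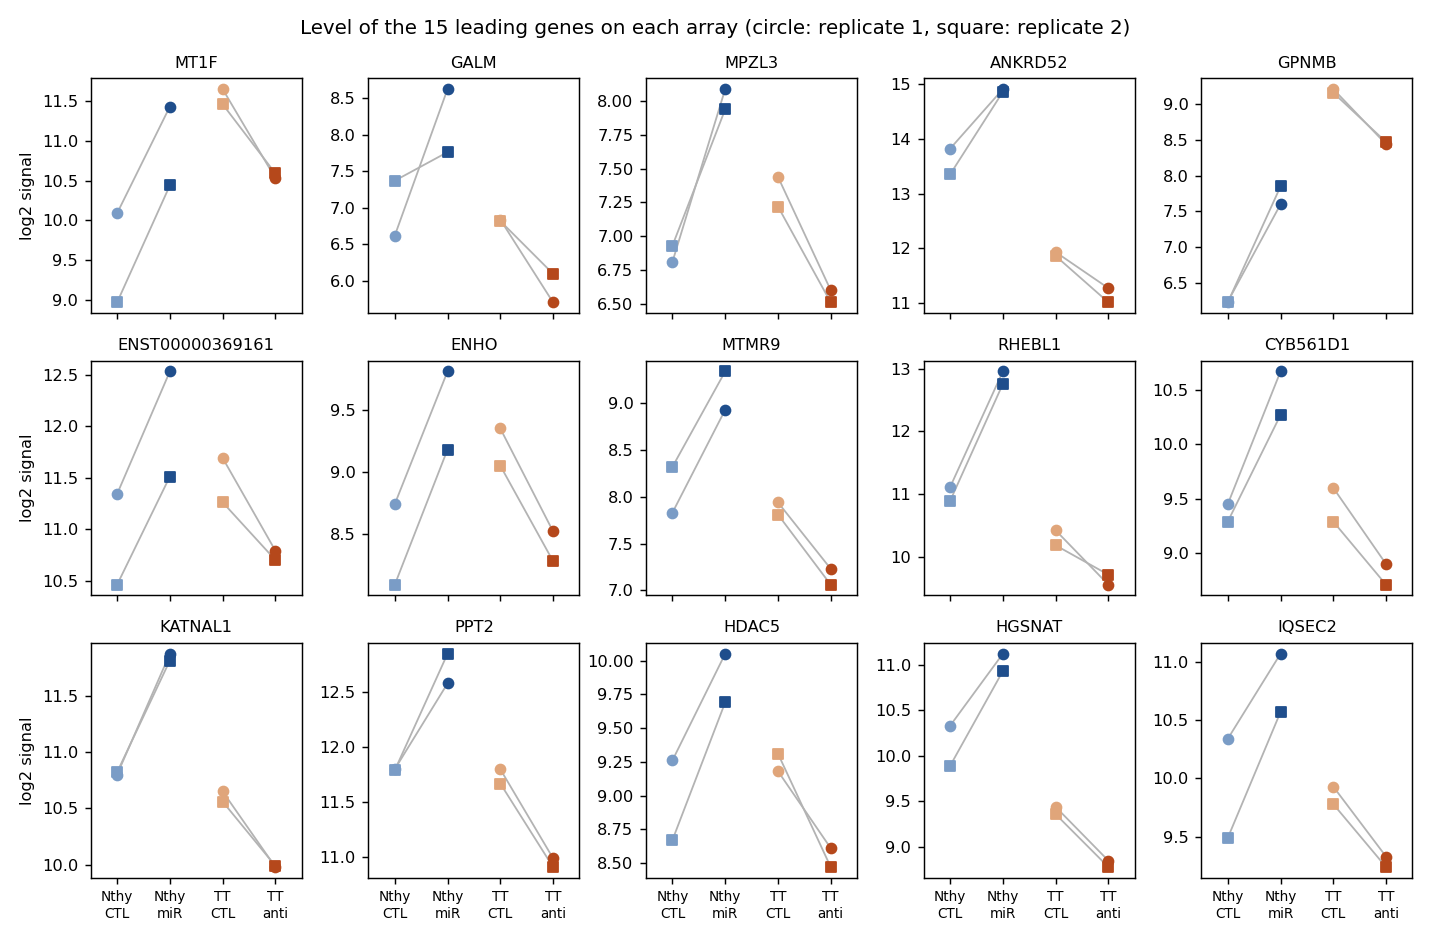
Deposited log2 signal (y axis, a separate scale in each panel) of the 15 leading genes in the 4 groups (x axis; miR is pre-miR-375, anti is antagomiR-375), with a circle for replicate 1, a square for replicate 2 and a grey line joining arrays of 1 slide. Every line rises in Nthy-ori 3-1 and falls in TT cells, the mean rise is largest for RHEBL1 (3.63-fold), the largest rise within a pair is that of GALM (2.00), and replicates lie farthest apart for MT1F (1.12) and ENST00000369161 (1.02).

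A group of 10 genes encodes proteins of the lysosome, the compartment in which hydrolases break down lipids, proteins and glycans. Their changes ran from 0.61 to 1.49 with pre-miR-375 (median 0.71) and from -0.78 to -0.42 with antagomiR-375 (median -0.50). GPNMB, a glycoprotein of melanosomes and lysosomes, had the largest rise of the group. It read 6.24 and 6.23 in ORI_CTL, where it was not well above background, and 7.60 and 7.85 with pre-miR-375 (chr7:23314496-23314555). On background-subtracted signals that is at least 6.34-fold higher, counted against the lowest signal well above background on each control array. In TT cells it went from 9.21 and 9.16 in TT_CTL to 8.44 and 8.47 with antagomiR-375. A further GPNMB probe averaged under 6 in both lines and changed by 0.04 and -0.12, so the values of GPNMB rest on 1 of 2 probes.

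The thioesterases PPT1 and PPT2, which remove fatty acyl groups in the lysosome, were both members. PPT2 (chr6:32131273-32131332) read 11.80 and 11.79 in ORI_CTL, 12.58 and 12.85 with pre-miR-375, 11.80 and 11.67 in TT_CTL and 10.99 and 10.91 with antagomiR-375. PPT1 (chr1:40538525-40538584) read 13.58 and 13.66 in ORI_CTL, 14.13 and 14.36 with pre-miR-375, 13.58 and 13.65 in TT_CTL and 13.10 and 13.24 with antagomiR-375. For both genes the treated arrays lay clear of the control arrays, above them in Nthy-ori 3-1 and below them in TT cells. The deposited signals of each line were normalized separately, so levels are compared between lines only on the jointly normalized scale. A further PPT1 probe read 0.59 higher and 0.47 lower, just short of the threshold in Nthy-ori 3-1 cells.

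HGSNAT, an acetyltransferase of heparan sulfate breakdown, read 10.33 and 9.89 in ORI_CTL, 11.12 and 10.93 with pre-miR-375, 9.44 and 9.36 in TT_CTL and 8.85 and 8.78 with antagomiR-375. Among the others, PLA2G15, a lysosomal phospholipase, changed by 0.74 and -0.58, and LIPA, the acid lipase that cleaves cholesteryl esters, by 0.61 and -0.48. GM2A, the activator protein of ganglioside breakdown, changed by 0.67 and -0.50, IDS, the sulfatase of heparan and dermatan sulfate, by 0.65 and -0.42, and GGH, the hydrolase of folate polyglutamates, by 0.69 and -0.44. SLC38A9, the arginine sensor of mTORC1 at the lysosomal membrane, changed by 0.73 and -0.51. Further probes of GM2A (0.54 and -0.32) and 2 of the 3 further probes of IDS had the same directions with smaller values.

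None of these 10 genes was on the list of 20 lysosome and autophagy genes, which was chosen with earlier results of these data known. Of the 20 list genes, all at the expression minimum, 18 were higher with pre-miR-375 (median 0.43) and 14 were lower with antagomiR-375 (median -0.04), where 55.6% and 52.0% of all probes at the minimum were. In all 4 pairs of arrays, 9 of 20 were higher with pre-miR-375 and lower with antagomiR-375, as were 14.8% of all probes, and 0 of 20 had the opposite pattern. The 9 include GABARAPL1, an autophagosome protein (0.98 and -0.24), CTSA, protective protein and cathepsin A (0.78 and -0.17), NPC2, a cholesterol carrier (0.60 and -0.22), and GLA, alpha-galactosidase A (0.56 and -0.15). In TT cells the other 6 were higher rather than lower with antagomiR-375. List genes outside the members are given by their brightest probe. All probes at the minimum had median levels of 8.42 in Nthy-ori 3-1 and 8.08 in TT cells. The shares were not matched for signal level, for this list or the others.

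In limma's test of each treatment over all 50599 probes, adjusted by the Benjamini-Hochberg method, 0 probes passed an adjusted p of 0.05 in either line, while 7257 for pre-miR-375 and 4920 for antagomiR-375 had an unadjusted p under 0.05. With the deposited values 569 probes passed for pre-miR-375 and 0 for antagomiR-375 (6123 at an unadjusted p under 0.05). Of the 20 lysosome genes 1 passed with the deposited values, GABARAPL1 in Nthy-ori 3-1 cells (adjusted p = 0.0465).

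The lists were not tested against each other. Of 20 mitosis genes 6 had the pattern in all 4 pairs (14.8% of all probes) and 0 the opposite one, with medians of 0.02 and -0.17. Of these 20, 12 were higher with pre-miR-375 (55.6% of all probes) and 17 were lower with antagomiR-375 (52.0% of all probes). Of 18 p53 targets at the minimum 4 had it, with medians of 0.38 and 0.04. BTG2 (1.20 and -0.26) and FDXR (0.60 and -0.23) were among these, with TP53INP1, the 1 member on that list. The pattern was reversed in all 4 pairs for 8 of 15 genes of the integrated stress response, 7 of 14 immediate early genes, 7 of 18 glycolysis and hypoxia genes and 7 of 14 amino acid and nutrient transporters, as for 2764 of all 25802 probes. No list other than the metallothioneins and p53 targets held a member.

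**Figure D3:**
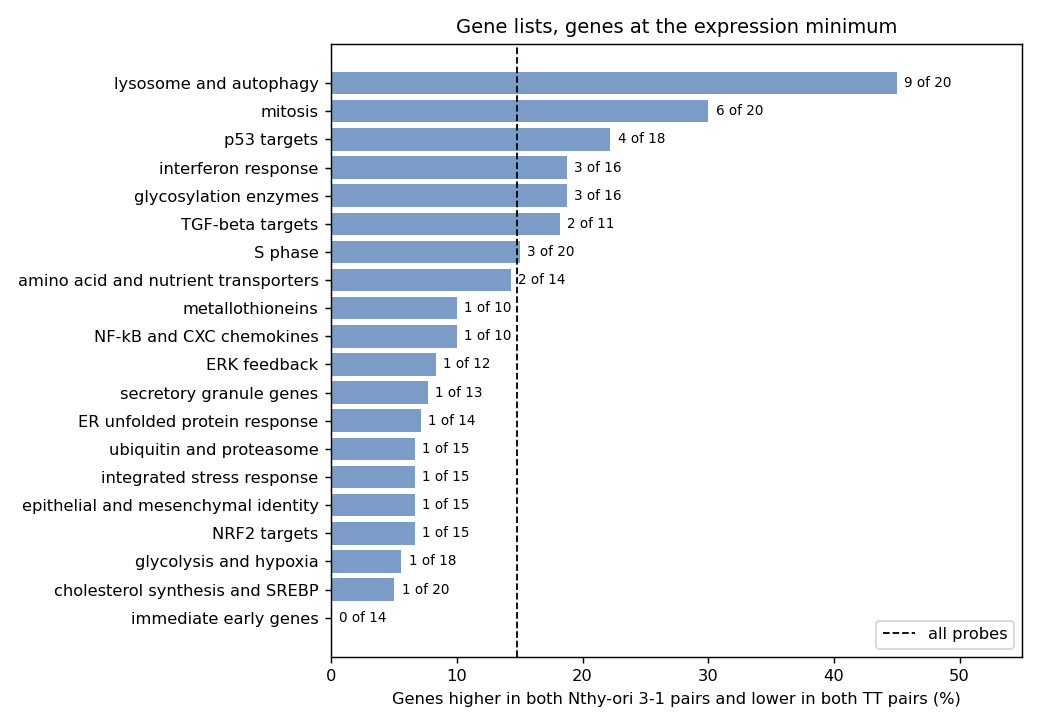
Share (x axis, %) of the genes of each list at the expression minimum that were higher with pre-miR-375 in both Nthy-ori 3-1 pairs and lower with antagomiR-375 in both TT pairs, with the counts beside the bars and a dashed line for all probes (14.8%). Lysosome and autophagy genes stand at the top with 9 of 20 and immediate early genes at the bottom with 0 of 14.

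TP53INP1, a p53-induced protein of apoptosis and autophagy, read 6.93 and 7.14 in ORI_CTL, 7.32 and 8.31 with pre-miR-375, 9.27 and 9.53 in TT_CTL and 8.72 and 8.91 with antagomiR-375. The groups were separate, but the pairs in Nthy-ori 3-1 cells differed by 0.39 and 1.17. HDAC5, a class IIa histone deacetylase, read 9.26 and 8.67 in ORI_CTL, 10.05 and 9.69 with pre-miR-375, 9.18 and 9.31 in TT_CTL and 8.61 and 8.47 with antagomiR-375. Its relative HDAC4 was higher in both lines (0.29 and 0.53), and HDAC7 was close to control (0.18 and 0.04).

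Cell cycle regulators were among the members as well. E2F7, a repressor of E2F target genes, read 11.42 and 10.91 in ORI_CTL, 12.18 and 11.76 with pre-miR-375, 8.54 and 8.63 in TT_CTL and 8.21 and 8.14 with antagomiR-375. Its closest relative E2F8 differed by 0.01 in both lines. CDKN2D, an inhibitor of the kinases CDK4 and CDK6, changed by 0.99 and -0.43; its relative CDKN2C was higher by 0.80 in Nthy-ori 3-1 cells and averaged under 6 in TT cells. CABLES2, a regulator of cyclin-dependent kinases, changed by 0.71 and -0.51. TSC22D3, the leucine zipper protein induced by glucocorticoids, changed by 0.63 and -0.43.

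TENT5A and TENT5C (FAM46A and FAM46C on the array) are non-canonical poly(A) polymerases of 1 family. TENT5A (chr6:82455481-82455540) read 7.84 and 7.33 in ORI_CTL, 8.72 and 8.05 with pre-miR-375, 12.42 and 12.32 in TT_CTL and 11.74 and 11.62 with antagomiR-375, and its second probe changed by 0.85 and -0.57. TENT5C (chr1:118170883-118170942) read 5.85 and 5.93 in ORI_CTL, not well above background, 6.55 and 6.62 with pre-miR-375, 10.33 and 10.31 in TT_CTL and 9.60 and 9.77 with antagomiR-375. On background-subtracted signals its rise was at least 1.87-fold. Both ORI_CTL arrays read under 6, so TENT5C reached the minimum in Nthy-ori 3-1 cells only through the arrays with pre-miR-375. Its rise is therefore a description only. TENT5B (FAM46B) differed by -0.06 and 0.37, and TENT5D (FAM46D) averaged under 6 in both lines.

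Of the metabolic enzymes, B3GALT4, which makes the ganglioside GM1, rose from 8.73 and 7.65 to 10.03 and 9.28 with pre-miR-375 and went from 10.92 and 10.80 to 10.34 and 10.37 with antagomiR-375. CYB561D1, of the cytochrome b561 family of membrane electron carriers, read 9.45 and 9.29 in ORI_CTL, 10.67 and 10.27 with pre-miR-375, 9.60 and 9.29 in TT_CTL and 8.90 and 8.71 with antagomiR-375. The groups of both genes were separate. SRD5A1, a steroid 5-alpha-reductase, changed by 0.72 and -0.48, CYP2R1, the 25-hydroxylase of vitamin D, by 0.61 and -0.48, and CDS1, which makes CDP-diacylglycerol, by 1.01 and -0.41. A further probe of CYP2R1 differed by -0.03 and 0.13, the opposite directions, and a further probe of SRD5A1 by -0.12 and -0.09. CDS2, the second gene of its kind, was 0.56 higher and 0.51 lower.

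Cell surface and secreted proteins included MPZL3, an adhesion molecule of the immunoglobulin family. It read 6.81 and 6.93 in ORI_CTL, 8.09 and 7.94 with pre-miR-375, 7.44 and 7.22 in TT_CTL and 6.60 and 6.51 with antagomiR-375. ENHO, the precursor of the peptide adropin, read 8.74 and 8.09 in ORI_CTL, 9.81 and 9.18 with pre-miR-375, 9.35 and 9.05 in TT_CTL and 8.52 and 8.28 with antagomiR-375. Replicates of ENHO lay up to 0.65 apart, less than the treatment groups. A further ENHO probe changed by 0.48 and -0.38. COL5A2, a chain of type V collagen, changed by 0.98 and -0.45, LXN, an inhibitor of carboxypeptidases, by 0.61 and -0.46, and AQP11, an aquaporin, by 0.88 and -0.48. WFIKKN1, a secreted protein that binds myostatin, was not well above background in ORI_CTL. On background-subtracted signals it was at least 2.55-fold higher with pre-miR-375, counted against the lowest signal well above background. In TT cells it read 7.13 and 8.14 in TT_CTL and 6.82 and 6.59 with antagomiR-375. Most of its fall of -0.92 there came from 1 pair.

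HLA-DMB, a chain of the peptide loader of class II antigen presentation, changed by 0.69 and -0.45, and HLA-DMA, its partner chain, by 0.40 and -0.51. CD83, a surface marker of mature dendritic cells, changed by 0.71 and -0.46. IFI27L1, related to an interferon-induced gene, changed by 0.83 and -0.46, and IFI27L2 by 0.50 and -0.55. In the interferon list, 3 of 16 genes at the minimum had the pattern in all pairs, close to the 14.8% of all probes, IFIT1 and IFIH1 among them. Of the 16, 14 were higher with pre-miR-375 (55.6% of all probes) and 5 were lower with antagomiR-375 (52.0% of all probes). KATNAL1, a microtubule-severing enzyme, read 10.80 and 10.82 in ORI_CTL, 11.87 and 11.81 with pre-miR-375, 10.65 and 10.56 in TT_CTL and 9.98 and 9.99 with antagomiR-375. Its replicates lay at most 0.09 apart in every group, while its relative KATNA1 differed by 0.04 and 0.18.

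Relatives and partners of members were looked up in this way for 39 genes, picked after the members were known. Of the 34 at the minimum in both lines, 14 were higher in Nthy-ori 3-1 and lower in TT cells, and 0 met both thresholds. Of all probes at the minimum 55.6% were higher in Nthy-ori 3-1 and 52.0% lower in TT cells. The share with both directions is not given here, so nothing is read from the 14. The 4 that differed by at least 0.4 in both were CDS2, HLA-DMA, IFI27L2 and TMSB15A (0.57 and -0.72), the near-identical neighbour of the member TMSB15B (0.78 and -0.54). SLC2A3 differed by 0.72 and -0.11 beside its near-identical relative SLC2A14 (1.18 and -0.42). Signal shared between such copies was not tested.

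Antisense RNAs made up 6 of the 89. EPHA5-AS1 (LOC100144602 on the array, chr4:66559044-66559103) had the second largest rise. It read 7.63 and 6.85 in ORI_CTL, 9.28 and 8.77 with pre-miR-375, 11.76 and 11.46 in TT_CTL and 11.24 and 11.03 with antagomiR-375. Its sense partner EPHA5, an ephrin receptor, differed by 0.17 and -0.14. PDCD4-AS1 (LOC282997) changed by 0.71 and -0.51, while PDCD4, a translation inhibitor, was 0.96 higher and 0.06 higher. For SNAI3-AS1 (MGC23284), TTC28-AS1, WDFY3-AS2 and ZNF436-AS1 (C1orf213), the rise was 0.60 to 1.03 at the probe that met the rule, and SNAI3, TTC28, WDFY3 and ZNF436 differed by -0.03 to 0.24. In TT cells these sense genes differed by -0.38 (SNAI3), 0.25 (TTC28), -0.27 (WDFY3) and -0.03 (ZNF436). The further probes at the minimum read -0.04, 0.24 and 0.16 with pre-miR-375 for SNAI3-AS1, 0.56 and 0.11 for TTC28-AS1 and 0.43 for ZNF436-AS1. These values are below those of the selected probes. The TTC28-AS1 probe at 0.56 read -0.43 in TT cells, so it too differed from TTC28. The ZNF436-AS1 probe read -0.24 in TT cells, and the others fell no lower than -0.13. The size of a contrast with the sense gene therefore depends on the probe.

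A pair of members lay in histone gene clusters although they do not carry a histone name. ENST00000369161 (chr1:149823132-149823191) lay 0.50 kb from the probe of HIST2H2AA4 and read 11.34 and 10.46 in ORI_CTL, 12.53 and 11.51 with pre-miR-375, 11.69 and 11.26 in TT_CTL and 10.79 and 10.70 with antagomiR-375. LOC100507025 (chr6:26281286-26281345) lay 4.21 kb from HIST1H4H and changed by 0.93 and -0.48. Among the 14 names the rule left out were 4 histone genes (HIST1H2BC, HIST1H2BD, HIST1H2BG and HIST2H2AA4), 6 H/ACA small nucleolar RNAs and 4 Cajal body RNAs. LSM11, a subunit of the U7 particle that processes the 3′ end of histone transcripts, was a member (1.03 and -0.41), its partner LSM10 differed by -0.08 and 0.07 and SLBP, the histone stem-loop binding protein, by -0.45 and 0.03.

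Other probes of members often did not meet the rule. Of the 89 genes, 4 had more than 1 probe that met the rule (TENT5A, TSTD3 under the name LOC100130890, RPL23AP7 and LINC00659 under the name LOC100652730). A further 50 probes of 32 members did not meet it. Of the 38 of these at the minimum, 26 had the same directions in both lines, 11 in 1 line and 1 in neither (CYP2R1), and 0 met both thresholds. Further probes of MPZL3 (0.14 in Nthy-ori 3-1 cells), HGSNAT (0.24 and -0.15) and E2F7 (0.73 and -0.04) averaged under 6 in TT cells. Since the rule took the gene if any of its probes passed, the number of other probes that fell short is a description. The array names 63 members by a RefSeq mRNA accession, 77 were matched to a current symbol, 17 of them under a new name, and 12 were not matched.

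The level in TT against Nthy-ori 3-1 cells, averaged over treated and control arrays of each line, was tested. The rule did not use this average beyond the minimum, but the treated arrays are part of it. Both selected changes of a member therefore lower its difference, and those of a mirrored gene raise it. The control groups alone were not compared between the lines. TENT5C, TENT5A, EPHA5-AS1, GPNMB and CACFD1 were the members most above Nthy-ori 3-1 cells in TT cells, and E2F7, LOC100506295, LOC149351, ANKRD52 and XLOC_l2_002767 the most below. Calls needed a log2 difference of at least 1 and passed 0.05 after limma's p-values had been adjusted over all 50599 probes. Among the probes at the expression minimum, 17.0% were called higher and 15.9% lower in TT cells. Of the 89 members, 21 were higher (23.6%), 19 were lower (21.3%) and 49 were not called, with a median difference of 0.02. Of the 124 mirrored genes, 26 were higher, 22 lower and 76 not called, with a median of 0.27. The members lay on both sides, in shares that were not tested against those of all probes. Since the selected changes shift the difference, nothing is read from these shares and medians. For 39 members the 4 arrays of a line did not overlap with the 4 of the other on the background-subtracted scale, which was so for 52.8% of all probes.

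On the background-subtracted scale, TENT5A averaged 12.33 ± 0.38 in TT and 7.60 ± 0.73 in Nthy-ori 3-1 cells (log2, SD, n = 4, treated and control arrays together), a difference of 4.74 (standard error 0.255, adjusted p = 7.33e-05 from limma). EPHA5-AS1 differed by 4.07 (adjusted p = 0.000172) and CACFD1 (C9orf7, a calcium channel flower homologue) by 2.82 (adjusted p = 0.000727). TENT5C differed by 6.20 (adjusted p = 3.25e-05) and GPNMB by 3.40 (adjusted p = 2.68e-05), both with ORI_CTL near background. On this scale, with ORI_CTL set at the lowest signal well above background, TENT5C was at least 38.3-fold and GPNMB at least 8.88-fold higher in TT cells. With normexp signals the log2 differences were 3.83 for TENT5C and 1.99 for GPNMB.

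E2F7 averaged 8.08 ± 0.27 in TT and 11.10 ± 0.49 in Nthy-ori 3-1 cells (log2, SD, n = 4), a difference of -3.02 (standard error 0.141, adjusted p = 4.3e-05 from limma). LOC100506295 differed by -2.95 (adjusted p = 0.000193), LOC149351 by -2.56 (adjusted p = 0.000165, or -1.38 with normexp signals), ANKRD52 by -2.46 (adjusted p = 9.51e-05) and XLOC_l2_002767 by -2.45 (adjusted p = 0.000402). Of the lysosomal members 4 were called lower in TT cells (HGSNAT, PLA2G15, SLC38A9 and LIPA), 2 higher (GPNMB and GGH) and 4 were not called. Of the signalling members 3 were lower (ANKRD52, RHEBL1 and SIKE1), 0 higher and 5 not called. These calls average treated and control arrays, so the selected changes are part of them. HGSNAT differed by -1.18 between the lines, with changes of 0.96 and -0.6 on the same scale. RHEBL1 differed by -1.64, with changes of 1.85 and -0.73. Whether these genes differ between the untreated lines was not tested, and nothing is read from the counts by role.

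**Figure D4:**
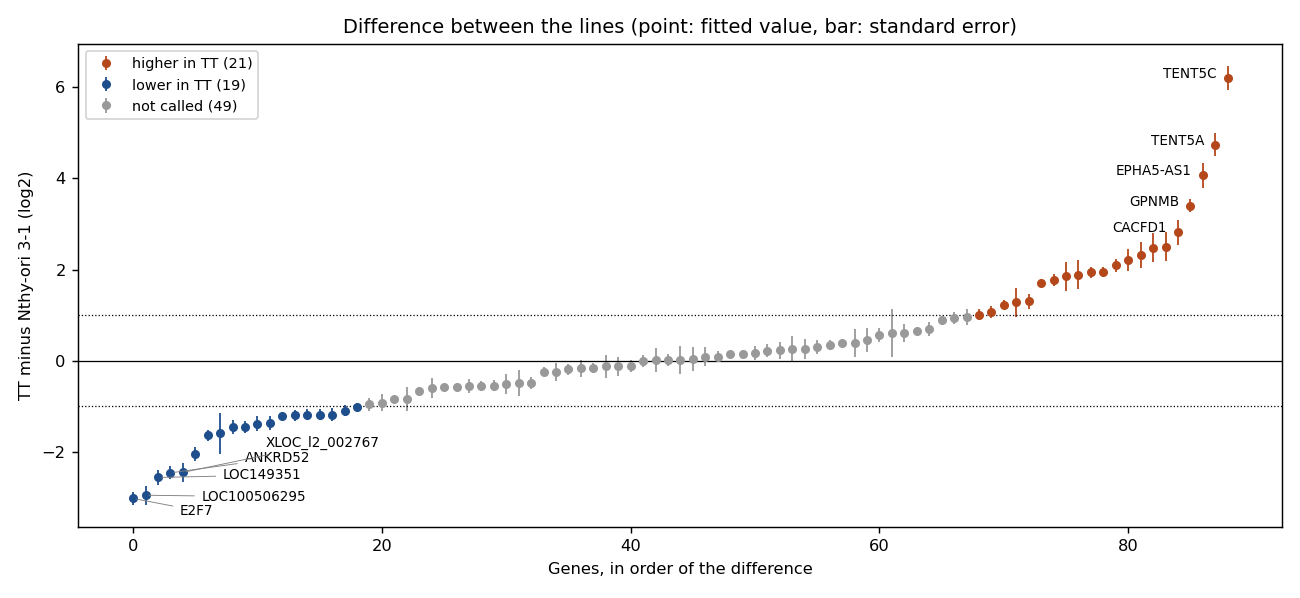
Log2 difference between TT and Nthy-ori 3-1 cells (y axis) for the 89 genes in order (x axis), with the standard error from limma as bars, orange for genes called higher in TT cells (21), blue for lower (19), grey for not called (49) and dotted lines at 1 and -1. Treated and control arrays of a line were averaged, so the selected changes shift the values downward. The extremes are TENT5C at 6.20 and E2F7 at -3.02, and the order crosses 0 near the middle.

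Some granule genes of C cells were higher on the same ORI_premiR-375 arrays as TENT5C and GPNMB, which had the largest and the fourth largest difference toward TT cells. SCG2, a granin of secretory granules, read 6.02 and 6.32 in ORI_CTL and 7.35 and 8.67 with pre-miR-375. CALCA, CHGA, CHGB, SYP, SCG2 and SCG3 each had a probe well above background on both ORI_premiR-375 arrays and on neither ORI_CTL array, as TENT5C and GPNMB were. PCSK1, CEACAM5 and NKX2-1, all well above background on the 4 TT arrays, were not well above background on any Nthy-ori 3-1 array. Of 13 secretory granule genes at the minimum 12 were higher with pre-miR-375 (55.6% of all probes) and SCG5 was lower (-0.59). With antagomiR-375, 2 of the 13 were lower (52.0% of all probes). The minimum averages treated and control arrays, so a rise can itself bring a gene into this count, and nothing is read from it. The list genes below the minimum differed by -0.13 to 0.05 with pre-miR-375. RET, a C cell marker, read 7.12 and 6.77 in ORI_CTL and 6.97 and 6.60 with pre-miR-375. Over the 49 probes at 13 or more in TT cells and under 7 in ORI_CTL, the median difference with pre-miR-375 was -0.02 in one pair and -0.03 in the other. The part of these genes in the rise of the members was not tested.

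Promoters of 60 members were found in RefSeq (300 bases, from 250 before to 50 after the start, GRCh38.p14). They were searched on both strands for 13 motifs. The GC box GGGCGG was in 47 of 60 (78.3%), against 67.1% of the 9946 promoters of genes at the expression minimum and 44.6% of all 27305 promoters. CCAAT, the core bound by NF-Y, was in 16 (26.7%, against 36.4% and 35.7%), and the ETS motif CCGGAAG in 5 (8.33%, against 17.8% and 10.7%). The antioxidant response element TGACNNNGC was in 10 (16.7%, against 15.1% and 13.6%), TEAD's GGAATG in 6, a smaller share than in either set of promoters, and the TATA box TATAAA in 5 (8.33%, against 6.47% and 12.0%). The heat shock core GAANNTTC was in 2 (3.33%, against 4.80% and 6.87%). The letters of the cAMP response element (TGACGTCA), the sterol element (TCACNCCAC), the interferon-stimulated response element and the NRF1 motif were in 0 of 60, where 1.18 to 3.03% of the promoters at the minimum hold them.

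The E-box CACGTG, which includes the core of the site read by lysosomal gene regulators, was in 4 promoters (6.67%, against 9.95% and 7.43%), those of ARL2, HTATIP2, SMIM27 and SPRYD4, and in 0 of the 8 lysosomal members with a promoter here. The AP-1 motif TGANTCA was in 3 (5.00%, against 4.88% and 7.76%), a share near that of promoters at the minimum, namely those of PPT1, PPT2 and GPNMB. Nothing is read from their common role, which was assigned after the members were known. These 3 stretches are shown as the promoter sequence of members described above by array. They are 30 bases each, in the direction of the gene, with the motif in capitals. The GPNMB stretch is at chr7:23246630-23246659 on the plus strand, that of PPT2 at chr6:32153453-32153482 on the plus strand and that of PPT1 at chr1:40097446-40097475 on the minus strand. The motif starts 134, 64 and 212 bases before the start of transcription. These matches are letters in a window and say nothing of binding.
GPNMB: ccaagaaggagTGAGTCAtaagcacatgag
PPT2: ttacgcgggcaTGAGTCAgcgcatccctac
PPT1: agcaattatttTGATTCAccgcagagggcg

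Some members were neighbours on hg19. PPT2 and LOC100507547 lay 10.6 kb apart, ANKRD52 and SPRYD4 (0.90 and -0.51) 233.1 kb apart, and B3GALT4 and HLA-DMB 344.0 kb apart. SPRYD4 read 10.53 and 10.58 in ORI_CTL, 11.39 and 11.51 with pre-miR-375, 11.02 and 11.06 in TT_CTL and 10.51 and 10.55 with antagomiR-375, with replicates at most 0.12 apart. NHLRC3, an NHL repeat protein, had among the largest rises (1.41, from 8.31 and 8.55 to 9.81 and 9.87) with a fall of -0.43 (from 7.97 and 7.95 to 7.67 and 7.40). In bulk RNA, fewer cells of a kind and less RNA per cell cannot be told apart.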

How the data were processed

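RNA of 2 cell lines was hybridised to 8 one-colour (Cy3) Agilent arrays, 2 per group. The authors deposited for each array the Feature Extraction 10.10.1.1 output, with spot intensity and background intensity not normalized between arrays and, as other columns, deposited spot flags of 0 or 1. The authors also deposited a table of log2 values, made with limma and quantile normalization. Its ranks equal those of the median spot signal on each array and its 4 arrays per line share a distribution, so it was taken as the log2 of that signal, with no background subtracted and normalization within each line. It gave the members and every value per array. The labels name polyA RNA and the methods total RNA.

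The members, roles and gene lists were chosen with earlier results of these data known. For the tests, log2 of the processed (background-subtracted) intensity was used, control and outlier spots were left out, spots of 1 probe were averaged, and quantile normalization ran over all 8 arrays (limma 3.58.1, R 4.3.3). The line difference was fitted over 4 groups with lmFit and eBayes. The treatment contrasts were fitted per line with the replicate number, which is the slide, as a block, since replicates of the same number deviated together (r = 0.785 over 24194 probes in Nthy-ori 3-1 and 0.330 over 27246 in TT cells). P-values were adjusted by the Benjamini-Hochberg method. Precision is limited by the number of arrays, 2 in each group. Steps were tested on simulated data.

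Named genes are the 15 members with the largest smaller ratio of change to threshold, members on a list, those nearest the thresholds, the 5 with the largest line difference each way and up to 4 genes of a list; other members are given as examples of a role. A gene with several probes is given by the brightest that passed. Alternatives were other signals, normalizations, filters and blocks, stricter thresholds and leaving out arrays. Some genes of the lists and markers are counted but not reported here by name.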

Additional observations from a re-analysis of the deposited data

How the results depend on the processing

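The 89 genes depend on the scale on which the rule is applied. On background-subtracted signals normalized over 8 arrays 259 genes met it, 82 of the 89 among them, and with the 75th percentile 303, with 76 of the 89; the cause was not tested. With normexp signals 67 met it, 66 of them among the 89, with a minimum of 7 it was 82 and with changes of at least 1 and at most -0.6 it was 11. With the size of each change taken from 1 pair of arrays per line, the rule gave 98 to 118 genes, 59 and 65 of them among the 89. The directions and the minimum still came from all arrays, so these are not the counts that 1 pair alone would give. Calls in Nthy-ori 3-1 cells rose from 0 to 569 with the deposited values and to 1560 with normexp; in TT cells they were 0 under each alternative run. Leaving out a pair gave 0 calls in either line, with the spread taken from the other line alone, which says nothing about stability. Without the replicate block, which pairs arrays of a slide, both lines had 0 calls.

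Members higher in TT cells numbered 18 to 23 and members lower 17 to 20 when 1 array was left out, and among all probes at the minimum 3992 to 4525 were higher and 3659 to 4241 lower. With normexp 19 members were higher and 14 lower (3153 and 2977 probes), and without background correction 19 and 16 (3334 and 3158 probes). With the slide as a random replicate block 21 members were higher and 18 lower, GALM no longer called (adjusted p = 0.196 from limma). The 10 members named for this difference kept their direction and their call under each alternative run, with adjusted p of at most 0.00568, but 3 were over 1.5 times smaller with normexp or without background correction: TENT5C (3.83 and 4.06), GPNMB (1.99 and 2.14) and LOC149351 (-1.38 and -1.47). Leaving out an array leaves its group with 1, which is then assumed to vary like the others. Signal near background limits the dim members: 4 of the 89 were not well above background on all 8 arrays.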
